A study of Homo sapiens with 6 samples.

Results

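The E2F family and its partners were followed as 10 genes, the 8 E2F transcription factors E2F1 to E2F8, the dimerization partner TFDP1 and the pocket protein gene RBL1 (p107). They were found by matching the Ensembl IDs of the deposited table to gene symbols, which gave 10 of the 17811 genes listed. All 10 passed the filter on low values and were among the 17742 genes tested. The data are 6 poly(A) RNA libraries of 22RV1 cells, a human cell line from a prostate carcinoma, kept in RPMI-1640 medium with fetal bovine serum. The 3 groups, with 2 libraries each, were cells with a stable short hairpin RNA against IMPA1 (shIMPA1), against IMPDH2 (shIMPDH2), or against luciferase (shLuc, the control). IMPA1 dephosphorylates inositol monophosphates to free inositol, and IMPDH2 carries out the rate-limiting step of guanine nucleotide synthesis. The libraries of a group share 1 hairpin name, and no source used here says if they are separate cultures, separate hairpins or technical repeats. The p-values therefore reflect no more than the spread of these libraries, which could be technical.

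All 10 genes are protein coding in the GENCODE 29 annotation of GRCh38. Of the activators, E2F1 lies at chr20:33675683-33686404 and E2F2 at chr1:23506430-23531220, both on the minus strand, and E2F3 at chr6:20401906-20493715 on the plus strand. Of the repressors, E2F4 lies at chr16:67192169-67198918 and E2F5 at chr8:85177225-85217158 on the plus strand, and E2F6 at chr2:11444375-11466177, E2F7 at chr12:77021247-77065580 and E2F8 at chr11:19224063-19241620 on the minus strand. TFDP1 lies at chr13:113584721-113641470 on the plus strand and RBL1 at chr20:36996349-37095995 on the minus strand.

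E2F factors bind promoters of genes for DNA synthesis and cell division, mostly as dimers with a DP protein such as TFDP1. E2F1, E2F2 and E2F3 are the activators, which retinoblastoma protein (RB1) restrains until cyclin-dependent kinases phosphorylate it. E2F4 and E2F5 act mainly as repressors with the pocket proteins RBL1 and RBL2, while E2F6, E2F7 and E2F8 repress without pocket proteins. Several of these genes are themselves E2F targets in the cell cycle, which is why their promoter sequences are shown here before the values.

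The RefSeq promoter table (GRCh38.p14) had an entry for 8 of the 10 genes, and the 120 bases before the RefSeq start of each are printed below, 5′ to 3′ on the strand of the gene. For TFDP1 the 88 bases outside the GENCODE gene are printed, while the last bases of the E2F1, E2F6 and E2F7 stretches lie inside it. E2F5 and E2F8 are named only. Capitals mark the E2F-type motifs searched for, which were TTTCCCGC, TTTGGCGC, TTTCGCGC and TTTGCCGC or the same motifs without their first T, on both strands, so each 8-letter match also holds a 7-letter one.
E2F1, chr20:33686386-33686505, minus strand: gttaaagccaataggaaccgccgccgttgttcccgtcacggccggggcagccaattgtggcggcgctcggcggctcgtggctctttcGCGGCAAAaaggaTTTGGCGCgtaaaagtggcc
E2F2, chr1:23531234-23531353, minus strand: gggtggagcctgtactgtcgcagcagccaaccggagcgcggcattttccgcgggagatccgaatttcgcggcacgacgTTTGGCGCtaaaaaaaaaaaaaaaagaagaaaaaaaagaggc
E2F3, chr6:20401759-20401878, plus strand: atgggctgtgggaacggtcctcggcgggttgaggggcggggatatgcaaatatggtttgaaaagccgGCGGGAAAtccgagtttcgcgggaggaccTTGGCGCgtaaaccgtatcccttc
E2F4, chr16:67192035-67192154, plus strand: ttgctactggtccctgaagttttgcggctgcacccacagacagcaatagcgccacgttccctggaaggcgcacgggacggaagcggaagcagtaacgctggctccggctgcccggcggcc
E2F6, chr2:11466162-11466281, minus strand: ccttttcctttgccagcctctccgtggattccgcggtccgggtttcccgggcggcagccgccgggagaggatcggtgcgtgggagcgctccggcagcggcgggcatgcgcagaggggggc
E2F7, chr12:77065570-77065689, minus strand: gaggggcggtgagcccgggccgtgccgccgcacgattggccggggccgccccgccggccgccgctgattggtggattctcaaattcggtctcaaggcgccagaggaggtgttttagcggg
TFDP1, chr13:113584633-113584720, plus strand: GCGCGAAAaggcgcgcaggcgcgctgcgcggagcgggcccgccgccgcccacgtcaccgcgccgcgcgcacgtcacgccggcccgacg
RBL1, chr20:37095998-37096117, minus strand: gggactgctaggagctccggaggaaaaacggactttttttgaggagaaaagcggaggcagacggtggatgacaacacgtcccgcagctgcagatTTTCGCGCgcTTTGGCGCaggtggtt

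Within the 250 bases before the start, 5 of these 8 genes (62.5%) held an 8-letter motif, against 928 of 27305 genes in the whole promoter table (3.40%). E2F1 had its matches at 33 to 26 and 20 to 13 bases before the start, and RBL1 at 26 to 19 and 16 to 9. E2F2 had a match at 42 to 35, E2F3 at 53 to 46 and TFDP1 at 120 to 113 bases before the start. E2F7 held 7-letter motifs alone, at 176 to 170 and 133 to 127 bases before the start, outside the printed stretch. No match of either length was found for E2F4 or E2F6 in this window. With the 7-letter motifs, 6 of the 8 genes (75.0%) and 13.0% of all genes held a match. A match of letters is a description of the sequence and not of binding.

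The libraries held between 20828900 and 27773294 reads in genes. Each hairpin's target was lower in its own cells. IMPA1 fell by 0.52 on the log2 scale in shIMPA1 cells (adjusted p = 0.0145) and IMPDH2 fell by 0.61 in shIMPDH2 cells (adjusted p = 0.00999; limma, both against shLuc). IMPA1 had 957 and 1101 normalized reads in shIMPA1 and 1621 and 1331 in shLuc libraries. Against the shLuc mean, shIMPA1 replicate 1 lay at -0.62 and replicate 2 at -0.42 (log2), so replicate 1 had the lower IMPA1. Whether other changes follow the IMPA1 level was not tested. IMPA1 missed the threshold with shLuc replicate 1 left out (-0.37, adjusted p = 0.159, limma), and IMPDH2 with shLuc replicate 2 left out, or shIMPDH2 replicate 1 or shIMPDH2 replicate 2 (-0.49, -0.55 and -0.66, adjusted p = 0.127, 0.115 and 0.0787, limma). The shIMPA1 libraries stood further apart from each other than those of the other groups, with 934 genes over 2-fold apart, against 398 for shIMPDH2 and 266 for shLuc. All 8 prostate luminal markers listed were detected, with summed values of 93104 to 95745 in shIMPA1, 99190 to 106025 in shIMPDH2 and 123191 to 125570 in shLuc libraries. Of 6 fibroblast markers 4 were found, with sums of 282 to 395 in shIMPA1, 214 to 218 in shIMPDH2 and 516 to 555 in shLuc libraries. Most of each sum was COL1A1, with COL3A1 and DCN at 25.4 or below in every library. LUM had values of 51.2 and 15.5 in shIMPA1, 11.6 and 11.2 in shIMPDH2, and 187 and 157 in shLuc libraries. The log2 fold changes in shIMPA1 and shIMPDH2 cells were -2.55 and -3.80 for LUM, and -0.19 and -0.80 for COL1A1. The 5 immune and endothelial markers were looked up and gave no value to use. The part of these marker differences in the results was not tested.

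In shIMPA1 cells 7 of the 10 genes fell and none rose, while 30.2% of all genes tested were called, 16.2% lower and 14% higher. The genes that fell were the 3 activators, E2F7, E2F8, TFDP1 and RBL1, and E2F4, E2F5 and E2F6 did not pass the test. The median log2 fold change was -0.77 over the 10 genes and 0.02 over all genes. In shIMPDH2 cells 2 of the 10 fell, E2F5 and TFDP1, with 17.0% of all genes called (9.15% lower and 7.86% higher), and the median was -0.43 over the 10 genes and -0.01 over all genes. A gene was called at an adjusted p under 0.05 (limma on log2(value + 1) with Benjamini-Hochberg adjustment over all 17742 genes), and the fold changes are on that scale. In bulk RNA, fewer cells in a phase of the cell cycle and less RNA per cell cannot be told apart.

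**Figure D1:**
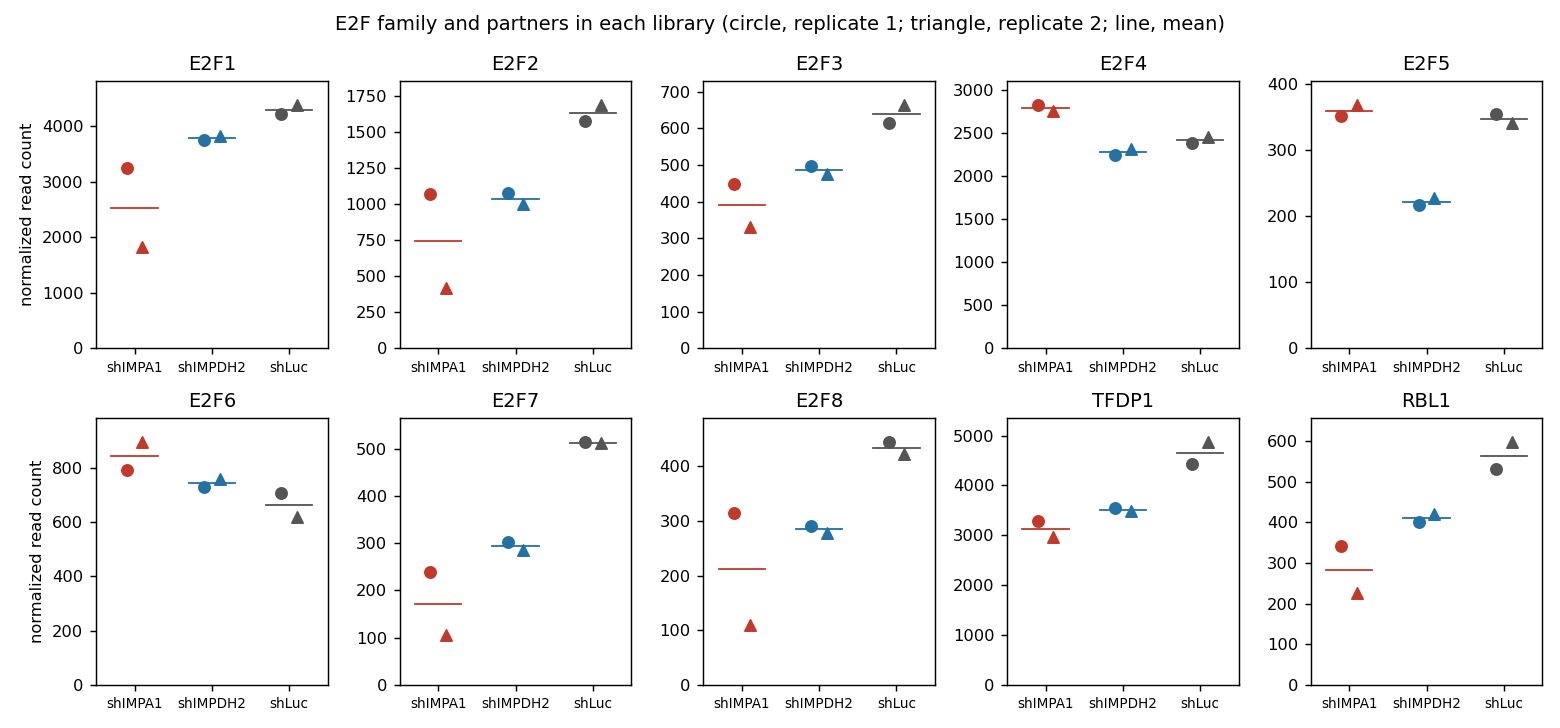
Normalized read counts (vertical axes, each starting at 0) of the 10 genes in the 6 libraries, by group, with circles for replicate 1, triangles for replicate 2 and a line at the group mean. Both shIMPA1 libraries lie below both shLuc libraries for E2F1, E2F2, E2F3, E2F7, E2F8, TFDP1 and RBL1, and replicate 2 is the lower shIMPA1 library for each of these.

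The activators were lower in shIMPA1 cells, with a wide gap between the libraries. E2F1, the best known activator of S-phase genes, had normalized read counts of 3246 and 1826 in shIMPA1, 3748 and 3833 in shIMPDH2, and 4217 and 4382 in shLuc libraries. Every shIMPA1 and shIMPDH2 library lay below both shLuc libraries, and the second shIMPA1 library was by far the lowest. E2F1 fell in shIMPA1 cells, with a log2 fold change of -0.82 (SE 0.21, adjusted p = 0.0132, limma), and gave -0.18 (SE 0.21, adjusted p = 0.589, limma) in shIMPDH2 cells. E2F2 had 1073 and 419 normalized reads in shIMPA1, 1076 and 1001 in shIMPDH2, and 1573 and 1685 in shLuc libraries. The first shIMPA1 library lay between the shIMPDH2 libraries, and no library of either knockdown reached the shLuc values. Its log2 fold change was -1.28 in shIMPA1 cells (SE 0.31, adjusted p = 0.0106, limma), a fall, and -0.65 in shIMPDH2 cells (SE 0.31, adjusted p = 0.176, limma). E2F3, whose 2 main protein forms share 1 gene-level count here, had 450 and 332 normalized reads in shIMPA1, 498 and 477 in shIMPDH2, and 614 and 663 in shLuc libraries. The groups did not overlap for E2F3, with shIMPA1 lowest and shLuc highest. It fell in shIMPA1 cells at -0.72 (SE 0.16, adjusted p = 0.00626, limma), and gave -0.39 in shIMPDH2 cells (SE 0.16, adjusted p = 0.117, limma).

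The size of the falls in shIMPA1 cells depended on the library. With the first shIMPA1 library alone in its group, the log2 fold changes were -0.40 for E2F1 and -0.60 for E2F2, and with the second alone they were -1.24 and -1.95. The lone library is assumed there to vary like the other groups. Between the shIMPA1 libraries E2F1 differed 1.78-fold and E2F2 2.56-fold, replicate 2 lower. With DESeq2, 5 of the 10 genes were called in shIMPA1 cells, and E2F2 and E2F8 lost their calls. E2F1 and E2F2 also lost their calls without shLuc replicate 1 (adjusted p = 0.0865 and 0.0776, limma) or without shLuc replicate 2 (0.104 and 0.0967, limma), and E2F3 without shLuc replicate 2 (0.0778, limma). Their log2 fold changes then were -0.85, -1.33, -0.79, -1.23 and -0.67. Of the 10 genes 4 were called without shLuc replicate 1 and 2 without shLuc replicate 2, when 12.4% and 12.2% of all genes were called.

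The atypical repressors E2F7 and E2F8, which bind DNA without a DP partner and limit activator output late in S phase, were both lower. E2F7 had normalized read counts of 238 and 106 in shIMPA1, 302 and 286 in shIMPDH2, and 514 and 511 in shLuc libraries. The 3 groups were fully apart, with shIMPA1 lowest and shLuc highest. E2F7 had the largest fold change of the 10 genes, with a log2 fold change of -1.68 in shIMPA1 cells (SE 0.28, adjusted p = 0.0015, limma), 3.21-fold lower. It remained called in shIMPA1 cells under all 15 alternative settings run, at -1.10 with the first shIMPA1 library alone and -2.26 with the second alone. In shIMPDH2 cells E2F7 gave -0.80 (SE 0.28, adjusted p = 0.0763, limma), which missed the threshold. E2F8 had 314 and 109 normalized reads in shIMPA1, 291 and 278 in shIMPDH2, and 445 and 424 in shLuc libraries. Its first shIMPA1 library lay just above the shIMPDH2 libraries and its second far below them. E2F8 fell in shIMPA1 cells at -1.23 (SE 0.35, adjusted p = 0.0232, limma) and gave -0.61 in shIMPDH2 cells (SE 0.35, adjusted p = 0.266, limma). The E2F8 call depended on the settings: the log2 fold change was -0.46 with the first shIMPA1 library alone and -1.99 with the second alone, and it was lost with DESeq2 (adjusted p = 0.191). E2F8 also lost the call without shLuc replicate 1, shLuc replicate 2, shIMPDH2 replicate 1 or shIMPDH2 replicate 2 (adjusted p = 0.145, 0.126, 0.0512 and 0.0511, limma).

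**Figure D2:**
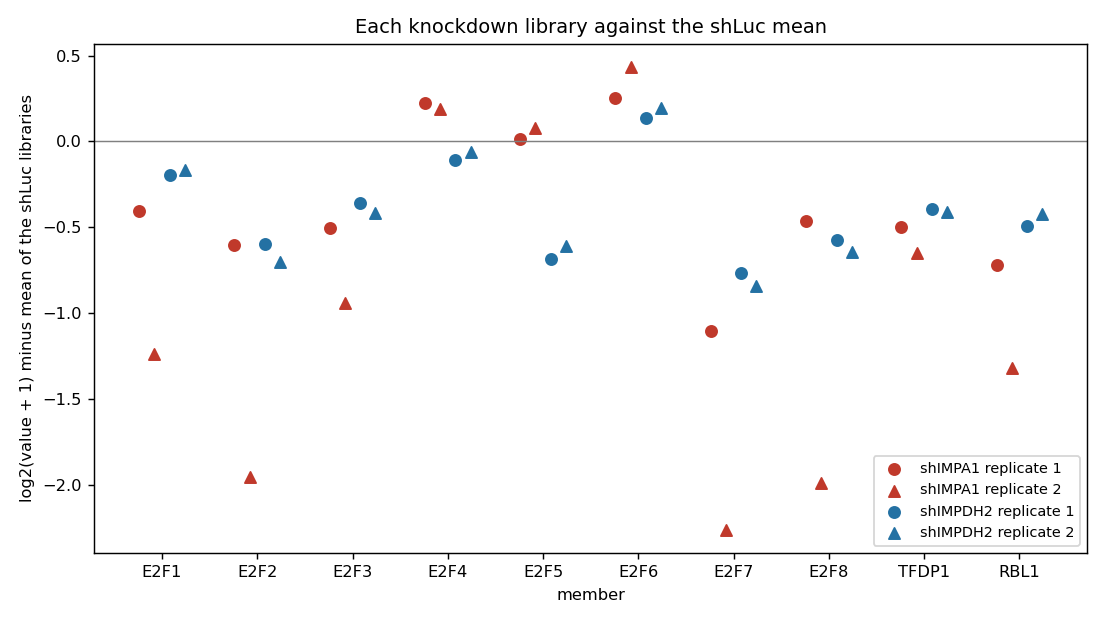
Each shIMPA1 and shIMPDH2 library as log2(value + 1) minus the mean of the 2 shLuc libraries (vertical axis) for the 10 genes (horizontal axis), with circles for replicate 1 and triangles for replicate 2. The shIMPA1 triangles for E2F1, E2F2, E2F7, E2F8 and RBL1 lie far below the circles, and the shIMPDH2 pairs lie close together.

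E2F4, E2F5 and E2F6 did not pass the test in shIMPA1 cells, and E2F5 fell in shIMPDH2 cells. E2F4, the most abundant E2F of resting cells, had 2827 and 2759 normalized reads in shIMPA1, 2246 and 2324 in shIMPDH2, and 2387 and 2455 in shLuc libraries. Both shIMPA1 libraries were the highest and both shIMPDH2 libraries the lowest, by small margins. The log2 fold changes were 0.21 in shIMPA1 cells (SE 0.11, adjusted p = 0.186, limma) and -0.08 in shIMPDH2 cells (SE 0.11, adjusted p = 0.643, limma). E2F5, the other pocket-protein-bound repressor, had 351 and 368 normalized reads in shIMPA1, 216 and 227 in shIMPDH2, and 355 and 340 in shLuc libraries. The shIMPA1 and shLuc libraries overlapped, and both shIMPDH2 libraries lay well below all of them. E2F5 fell in shIMPDH2 cells at -0.65 (SE 0.14, adjusted p = 0.0102, limma), 1.57-fold lower, and gave 0.05 in shIMPA1 cells (SE 0.14, adjusted p = 0.827, limma). The shIMPDH2 cells were also lower than the shIMPA1 cells, at -0.69 (SE 0.14, adjusted p = 0.00485, limma). Without any 1 of the shIMPDH2 or shLuc libraries the call against shLuc was lost, at log2 fold changes of -0.68 to -0.61 and adjusted p-values of 0.0817 to 0.114 (limma). E2F5 exons share 969 bases (16.3%) with the opposite-strand gene RBIS, and the sources used here do not say whether strand was used, so reads there could belong to either. RBIS itself was not called, at -0.18 in shIMPDH2 cells (adjusted p = 0.493, limma), a value looked up for this overlap. E2F6, which represses germ-line genes with a Polycomb complex, had 790 and 895 normalized reads in shIMPA1, 728 and 757 in shIMPDH2, and 708 and 620 in shLuc libraries. Its groups did not overlap and ran in the opposite order to the activators, with shIMPA1 highest. The log2 fold changes were 0.34 in shIMPA1 cells (SE 0.13, adjusted p = 0.0702, limma) and 0.16 in shIMPDH2 cells (SE 0.13, adjusted p = 0.424, limma), and the first passed the test only without shIMPA1 replicate 1 (0.43, adjusted p = 0.00474, limma).

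The partners TFDP1 and RBL1 were lower in shIMPA1 cells. TFDP1, which dimerizes with E2F1 to E2F6, had 3285 and 2956 normalized reads in shIMPA1, 3538 and 3491 in shIMPDH2, and 4422 and 4871 in shLuc libraries. The 3 groups were apart, and the shIMPA1 libraries were much closer together than for the activators. TFDP1 fell in both knockdowns, with log2 fold changes of -0.57 in shIMPA1 cells (SE 0.12, adjusted p = 0.00466, limma) and -0.40 in shIMPDH2 cells (SE 0.12, adjusted p = 0.041, limma). The first call was lost without shLuc replicate 2 (-0.50, adjusted p = 0.063, limma), and the second without any 1 of the shIMPDH2 or shLuc libraries (adjusted p from 0.125 to 0.248, limma). RBL1, the pocket protein that is itself induced at the entry to S phase, had 342 and 225 normalized reads in shIMPA1, 400 and 420 in shIMPDH2, and 531 and 598 in shLuc libraries. The groups were apart here too, with shIMPA1 lowest and shLuc highest. RBL1 fell in shIMPA1 cells at -1.02 (SE 0.19, adjusted p = 0.00237, limma), 2.03-fold lower, and remained called under all 15 alternative settings run. In shIMPDH2 cells it gave -0.46 (SE 0.19, adjusted p = 0.116, limma).

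**Figure D3:**
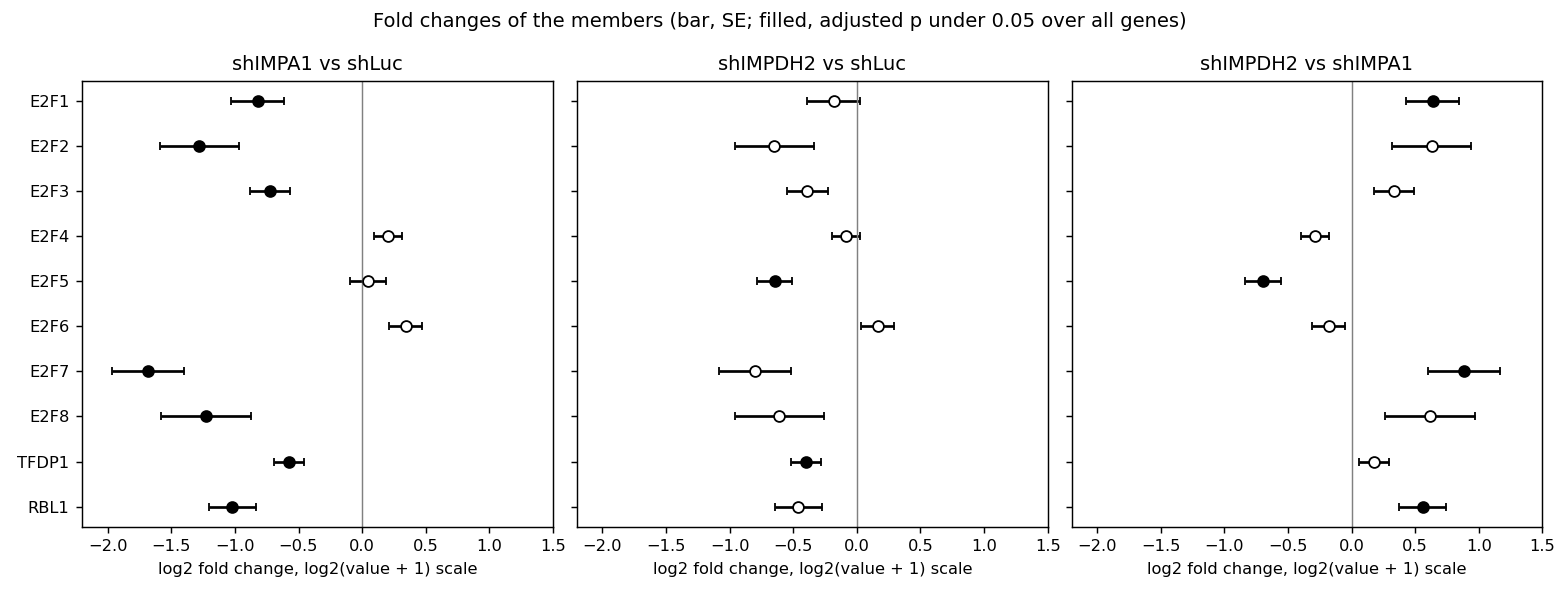
Log2 fold changes on the log2(value + 1) scale (horizontal axes) of the 10 genes in shIMPA1 against shLuc, shIMPDH2 against shLuc and shIMPDH2 against shIMPA1 cells, with bars for the standard error and filled points for an adjusted p under 0.05 over all genes (limma). Filled points number 7 in the first panel, 2 in the second and 4 in the third.

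The shIMPDH2 calls turned on which libraries set the error. The shIMPDH2 libraries agreed closely, differing by at most 0.10 on the log2 scale for each of the 10 genes, but the fit shares 1 estimate of spread with the shIMPA1 libraries, where these genes differed by up to 1.52. DESeq2 on all 6 libraries called 3 of the 10 genes in shIMPDH2 cells. Fitted with limma on the shIMPDH2 and shLuc libraries alone, 7 of the 10 genes fell, with 36.5% of all genes called. These were E2F2, E2F3, E2F5, E2F7, E2F8, TFDP1 and RBL1, and the fold changes were as given above. Leaving out either shIMPA1 library leaves that group no spread of its own, so such a fit nearly repeats this one and adds no evidence. Without any 1 of the shIMPDH2 or shLuc libraries, no call among the 10 genes remained, and far fewer of all genes were called too. The median log2 fold change of the 10 genes was then between -0.51 and -0.35. In the same pair of groups both shIMPDH2 libraries lay below both shLuc libraries for 9 of the 10 genes, and above them for E2F6. The share of all genes that lay apart in this way was not counted, so this number does not set the 10 genes apart from other genes.

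Set against each other, the knockdowns differed for 4 of the 10 genes, with 26.1% of all genes called (12.6% lower and 13.5% higher). E2F1 (0.64, SE 0.21, adjusted p = 0.0435, limma), E2F7 (0.88, SE 0.28, adjusted p = 0.041, limma) and RBL1 (0.56, SE 0.19, adjusted p = 0.0468, limma) were higher in shIMPDH2 than in shIMPA1 cells, and E2F5 was lower as given above. The 3 higher calls rested on the second shIMPA1 library: without it the log2 differences were 0.22 for E2F1, 0.30 for E2F7 and 0.26 for RBL1, and none passed the test. They were also lost with edgeR on the recovered reads (adjusted p = 0.0571, 0.057 and 0.0534) and without shLuc replicate 1, shLuc replicate 2, shIMPDH2 replicate 1 or shIMPDH2 replicate 2. E2F5 lost its call without shIMPDH2 replicate 1 (-0.66, adjusted p = 0.0578, limma). E2F2 and E2F8, at 0.63 and 0.62 with both libraries, came to -0.05 and -0.14 without shIMPA1 replicate 2.

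That gap was wider for cell cycle genes than for genes in general. In shIMPA1 replicate 2, 5 of the 10 genes (E2F1, E2F2, E2F7, E2F8 and RBL1) were over 1.5-fold lower than in replicate 1, against 10.6% of all genes. The log2 differences of replicate 2 from replicate 1 ran from -1.52 for E2F8 to 0.18 for E2F6, with TFDP1 at -0.15. Of 39 genes known as G1/S targets of E2F, 27 were over 1.5-fold lower in replicate 2, and of 16 G2/M genes all 16 were. In shIMPDH2 and in shLuc none of the 10 genes differed by that much between libraries.

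**Figure D4:**
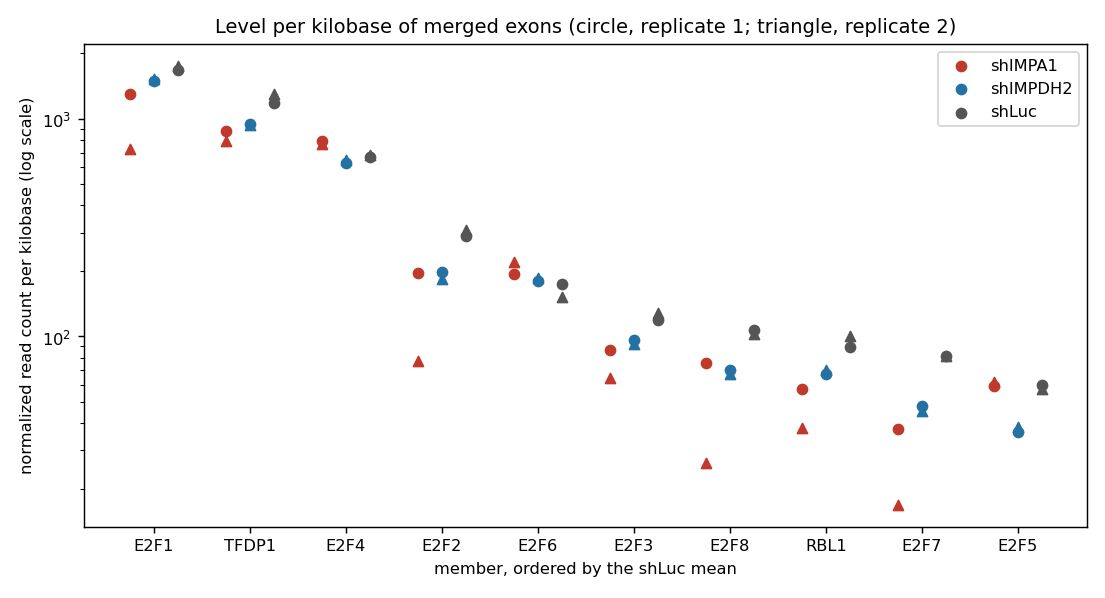
Normalized read counts per kilobase of merged exons (vertical axis, log scale) of the 10 genes in each library, ordered by the shLuc mean, with circles for replicate 1 and triangles for replicate 2. E2F1, TFDP1 and E2F4 stand at the top in every group, and E2F5 or E2F7 at the bottom.

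Levels were compared between genes per kilobase of exon (merged GENCODE 29 exons). In shLuc cells E2F1 was the most abundant at 1718 ± 46.8 normalized reads per kilobase, ahead of TFDP1 at 1242 ± 84.8 and E2F4 at 676 ± 13.5 (SD, n = 2 for each). E2F2 followed at 299, E2F6 at 163, E2F3 at 124, E2F8 at 105, RBL1 at 94.8, E2F7 at 81.3 and E2F5 at 58.6 per kilobase, and no neighbours in this order overlapped in shLuc cells. In shIMPA1 cells E2F1 at 1013 ± 401 overlapped TFDP1 at 834 ± 62.2 (SD, n = 2 for each), E2F6 at 207 stood ahead of E2F2 at 137, and E2F7 was lowest at 27.3 ± 14.8 per kilobase. Overlaps of neighbours there were E2F6 with E2F2, E2F2 with E2F3, E2F5 with E2F8 and E2F8 with RBL1. In shIMPDH2 cells the top was E2F1 at 1514 ± 24.1, TFDP1 at 940 ± 8.95 and E2F4 at 638 ± 15.4, and E2F5 was lowest at 37.4 ± 1.33 per kilobase (SD, n = 2 for each). There E2F2 overlapped E2F6 and RBL1 overlapped E2F8.

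Of the other pocket and DP genes, RB1 fell and RBL2 rose in shIMPA1 cells, and TFDP2 fell in shIMPDH2 cells. RB1, which holds the activators in check, had 1151 and 919 normalized reads in shIMPA1, 1712 and 1710 in shIMPDH2, and 1351 and 1394 in shLuc libraries. Both shIMPDH2 libraries were the highest and both shIMPA1 libraries the lowest. RB1 fell in shIMPA1 cells (-0.42, SE 0.13, adjusted p = 0.0343, limma), gave 0.32 in shIMPDH2 cells (adjusted p = 0.122, limma), and was higher in shIMPDH2 than in shIMPA1 cells by 0.73 (adjusted p = 0.00263, limma). RBL2 (p130), the pocket protein of resting cells, had 2172 and 3187 normalized reads in shIMPA1, 2234 and 2100 in shIMPDH2, and 1743 and 1916 in shLuc libraries. Both shIMPA1 libraries exceeded both shLuc libraries, the second by far the more. RBL2 rose in shIMPA1 cells at 0.53 (SE 0.16, adjusted p = 0.033, limma). TFDP2, the second DP partner, had 785 and 887 normalized reads in shIMPA1, 631 and 617 in shIMPDH2, and 926 and 936 in shLuc libraries. The shIMPDH2 libraries were the lowest for TFDP2, as for E2F5. It fell in shIMPDH2 cells (-0.58, SE 0.12, adjusted p = 0.00949, limma) and was lower there than in shIMPA1 cells by a log2 difference of -0.42 (adjusted p = 0.0286, limma). The RB1 and RBL2 calls in shIMPA1 cells were lost without shIMPA1 replicate 2 (-0.25 and 0.25, adjusted p = 0.129 and 0.139, limma), without either library of shLuc (RB1 -0.44 and -0.39, RBL2 0.46 and 0.59) and without either library of shIMPDH2. The TFDP2 call against shLuc was lost without any 1 of the shIMPDH2 or shLuc libraries (-0.59 to -0.56, adjusted p from 0.0842 to 0.109, limma), and its difference between the knockdowns likewise (adjusted p from 0.0624 to 0.179, limma). Fitted on shIMPDH2 and shLuc libraries alone, RB1 passed the test as higher in shIMPDH2 cells (0.32, adjusted p = 0.0104, limma).

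Genes that E2F factors are known to switch on for G1/S were lower in shIMPA1 cells almost throughout. Of 39 such genes 38 fell and none rose, with a median log2 fold change of -1.22, where 16.2% of all genes tested were called lower and 14% higher. CCNE1 alone did not pass the test (-0.24, adjusted p = 0.363, limma). CDC6, which loads the replicative helicase, had 1118 and 748 normalized reads in shIMPA1, 2464 and 2511 in shIMPDH2, and 2548 and 2745 in shLuc libraries. The shIMPA1 libraries of CDC6 lay far below the other 4, and the shIMPDH2 libraries just under shLuc. CDC6 fell in shIMPA1 cells, at a log2 fold change of -1.53 (adjusted p = 0.000105, limma). MCM4 (-1.46) and MCM6 (-1.29), subunits of that helicase, fell likewise in shIMPA1 cells. In shIMPDH2 cells 2 of the 39 fell, MCM3 (-1.70) and GINS1 (-0.80), with a median of -0.29, where 9.15% of all genes were called lower. MCM3, another helicase subunit, had 4732 and 4804 normalized reads in shIMPA1, 3936 and 4167 in shIMPDH2, and 12998 and 13375 in shLuc libraries. Both knockdowns lay far below shLuc for MCM3, and it fell in both (adjusted p = 1.26e-05 in shIMPA1 and 8.68e-06 in shIMPDH2 cells, limma). Between the knockdowns 31 of the 39 were higher in shIMPDH2 than in shIMPA1 cells, where 13.5% of all genes were called higher. The median of the 39 was 0.88, and 0.46 without shIMPA1 replicate 2. Against shLuc, the median in shIMPA1 cells was -0.80 without shIMPA1 replicate 2 and -1.19 without shLuc replicate 2. Fewer of the 39 were called without shLuc replicate 2, when far fewer of all genes were called too. Fitted on shIMPDH2 and shLuc libraries alone, 20 of the 39 fell in shIMPDH2 cells, with 36.5% of all genes called.

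The G2/M genes, which repressor E2F and MuvB complexes hold down in resting cells, were in the main lower in shIMPA1 cells. Of 16 such genes limma called 14 as lower in shIMPA1 cells, edgeR 12 and DESeq2 6, while limma called 16.2% of all genes lower. The median log2 fold change was -1.07 by limma, and AURKA (-0.53) and CENPA (-0.57) did not pass the test. KIF11, a spindle motor, gave -1.5, CCNA2, the cyclin of S and G2 phases, -1.5, AURKB, a mitotic kinase, -1.53, and UBE2C, a ubiquitin-conjugating enzyme of mitosis, -1.14. With the first shIMPA1 library alone these values were -1.01, -0.98, -0.95 and -0.60, and UBE2C lost its call without shLuc replicate 1 or shLuc replicate 2 (adjusted p = 0.068 and 0.0708, limma). In shIMPDH2 cells the median was -0.22 and limma called none of the 16 (2 at an unadjusted p under 0.05), against 1 by edgeR and 0 by DESeq2. The fit on those groups alone called 7, 6 of them lower. Of all genes limma called 17.0% in shIMPDH2 cells, and 36.5% in the fit on those groups alone. The shIMPA1 median was -0.47 with the first shIMPA1 library alone and -1.70 with the second alone. It was -1.15 without shLuc replicate 1 and -0.94 without shLuc replicate 2. Far fewer of the 16 were called without either shLuc library, when far fewer of all genes were called too. Of these genes' promoters in the RefSeq table, 8 of 12 (66.7%) held TTTGAA or TTCGAA, the CHR motif, against 17.2% of all genes, while 13 of 33 G1/S genes (39.4%) held the 8-letter E2F motif.

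**Figure D5:**
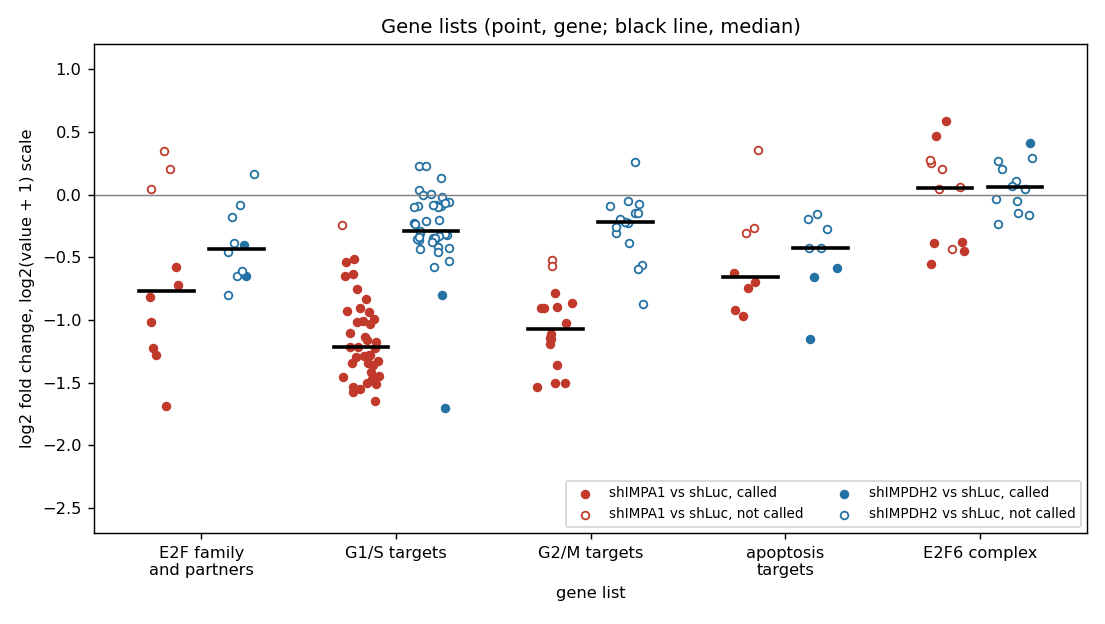
Log2 fold changes on the log2(value + 1) scale (vertical axis) of single genes (points) in 5 gene lists, for shIMPA1 and shIMPDH2 cells against shLuc, with filled points for an adjusted p under 0.05 over all genes (limma) and a black line at each median. The G1/S medians are -1.22 in shIMPA1 and -0.29 in shIMPDH2 cells, and the E2F6 complex genes lie around 0.

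The G1 cyclins, their kinases and the kinase inhibitors act upstream of the pocket proteins. Of 14 such genes tested, 5 fell and 3 rose in shIMPA1 cells, where 30.2% of all genes were called, and 3 fell and 1 rose in shIMPDH2 cells, where 17.0% were. CDKN2B (p15), an inhibitor of CDK4 and CDK6, had 2233 and 5549 normalized reads in shIMPA1, 469 and 480 in shIMPDH2, and 290 and 284 in shLuc libraries. Every shIMPA1 library was far above the rest, the second more than the first, and both shIMPDH2 libraries were above both shLuc libraries. CDKN2B rose in shIMPA1 cells, with a log2 fold change of 3.61 (SE 0.30, adjusted p = 1.83e-05, limma). In shIMPDH2 cells it gave 0.73 (SE 0.30, adjusted p = 0.125, limma), which missed the threshold. CDK6, a kinase of pocket proteins, had 873 and 835 normalized reads in shIMPA1, 472 and 375 in shIMPDH2, and 1137 and 1164 in shLuc libraries. It was lowest in shIMPDH2 cells, where it fell by 1.45 on the log2 scale (adjusted p = 8.49e-05, limma), and fell by 0.43 in shIMPA1 cells (adjusted p = 0.0372, limma). The difference between the knockdowns was itself called for CDK6, at -1.02 (adjusted p = 0.000495, limma). CCNE2, a cyclin of the G1/S transition, fell in shIMPA1 cells (-1.45) and gave 0.04 in shIMPDH2 cells. CCNE1 and CCNE2 are also counted among the 39 G1/S genes above, so these lists share genes. CDKN2C (p18), another inhibitor of CDK4 and CDK6 and an E2F target, fell in both, at -1.32 in shIMPA1 and -0.92 in shIMPDH2 cells. The shIMPA1 call of CDK6 was lost without shLuc replicate 1 or shLuc replicate 2 (-0.45 and -0.41, adjusted p = 0.156 and 0.183, limma), and the shIMPDH2 call of CDKN2C without any 1 of the shIMPDH2 or shLuc libraries (-0.97 to -0.87, adjusted p from 0.102 to 0.122, limma).

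Some genes that act on E2F proteins or with them changed. Of 3 genes for E2F turnover, CCNF (-1.05) and SKP2 (-0.90), which target E2F proteins for degradation, fell in shIMPA1 cells, where 16.2% of all genes were lower. None of the 3 was called in shIMPDH2 cells by limma (1 at an unadjusted p under 0.05), where edgeR and DESeq2 called CCNF (-0.55 and -0.56). Of 6 genes of the MuvB core and MYBL2, which join E2F4 complexes or replace them, MYBL2 (-1.0), LIN9 (-0.90) and RBBP4 (-0.60) fell in shIMPA1 cells, against the same 16.2% of all genes. MYBL2 is also counted among the 39 G1/S genes. With the first shIMPA1 library alone SKP2 came to -0.44, MYBL2 to -0.42 and LIN9 to -0.43, and these 3 calls were lost without shLuc replicate 1 or shLuc replicate 2. Among 12 genes of the E2F6 Polycomb complex 4 fell and 2 rose in shIMPA1 cells, with a median of 0.05, and 1 rose in shIMPDH2 cells, against 30.2% and 17.0% of all genes called in shIMPA1 and in shIMPDH2 cells. RING1, a ubiquitin ligase of that complex, rose (0.59) and MAX, its DNA-binding partner, rose (0.46), while the deacetylases HDAC1 (-0.45) and HDAC2 (-0.55) fell in shIMPA1 cells. MAX also rose in shIMPDH2 cells (0.41, adjusted p = 0.0413, limma). These calls in the E2F6 complex were all lost without 1 library or another: RING1 without shLuc replicate 2 (0.53), HDAC1 without shLuc replicate 2 (-0.34), shIMPDH2 replicate 1 or shIMPDH2 replicate 2, HDAC2 without shLuc replicate 1 (-0.43), and MAX without either shLuc library and, in shIMPDH2 cells, without either shIMPDH2 library (0.37 to 0.45). RBBP4 lost its call without shLuc replicate 2 (-0.52, adjusted p = 0.0581, limma).

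Genes outside these lists lay close to the E2F7 and E2F5 patterns across the 6 libraries, measured as the root mean square distance of log2 values centred over the libraries, among 12184 genes with a mean value of at least 100. The nearest to E2F7, the member with the largest change in shIMPA1 cells, were ACBD7 at 0.055, TICRR at 0.112 and DEPDC1B at 0.112. TICRR, which helps start DNA replication, had 344 and 149 normalized reads in shIMPA1, 536 and 413 in shIMPDH2, and 775 and 760 in shLuc libraries. The nearest to E2F5, the member called with the largest change in shIMPDH2 cells, were TAF12 at 0.052, a subunit of the general factor TFIID, FBXL14 at 0.056, an F-box protein, and SMAD3 at 0.060, a transducer of TGF-beta signals. SMAD3 had 188 and 210 normalized reads in shIMPA1, 107 and 124 in shIMPDH2, and 197 and 182 in shLuc libraries. Its shIMPDH2 libraries lay below the other 4, which overlapped. Because these genes were chosen for nearness to E2F7 or E2F5, a shared pattern is given by the choice. How many genes lie as close was not counted.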

How the data were processed

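The submitters' processing notes name Trimmomatic 0.36, STAR 2.5.2b, featureCounts of Subread 1.5.2 and the build GRCh38, and list DESeq2 without a role. Per the labels' protocols, unique reads in exons were counted per gene. Neither the annotation release nor the strandedness of the libraries is given in the sources used here. The deposited signal values are read counts that the authors had divided by 1 size factor per library: multiplied back, 99.98% to 100% of the values in a library were whole within 0.05 reads. They are called normalized read counts in the text. The log2 fold changes and p-values that the authors deposited beside them, for a comparison the file headers do not name, were not used. The reads recovered served for alternatives with edgeR 4.0.16, which called 5480 genes in shIMPA1, 3010 in shIMPDH2 and 4551 between the knockdowns, and DESeq2 1.42.0, which called 4685, 2625 and 3978.

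Ensembl IDs were matched to symbols for 17750 of 17811 genes. Genes that reached a value of 10 in 2 or more libraries were tested, 17742 in all, with limma 3.58.1 (R 4.3.3, with a mean-variance trend) on log2(value + 1), in 1 fit over all 6 libraries with 3 residual degrees of freedom, two-sided, with Benjamini-Hochberg adjustment over all genes. Adding 1 understates the change of low genes. Standard errors are limma's moderated ones. The fit was tested on simulated data with known changes and the same spread in every group. It was not tested on a group with wider spread, as the shIMPA1 libraries have here. Alternatives were TMM scaling, an added value of 10, no filter or one at 50, no trend, only the groups compared, the replicate number as a block, and leaving out each library.

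The 10 genes and the gene lists were chosen with earlier results of these data known. All 10 genes are reported, and from each other list at most 4 genes with the smallest adjusted p against shLuc, plus RB1, RBL2 and TFDP2. A gene that this rule names is not reported here. CCNE1, AURKA, CENPA, GINS1 and RBIS were named after their values were seen. Promoters came from RefSeq (GRCh38.p14).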

Additional observations from a re-analysis of the deposited data

How the results depend on the processing

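With 2 libraries per group, 1 library can decide a call. Without a mean-variance trend, 3508 genes were called in shIMPA1, 1727 in shIMPDH2 and 2909 between the knockdowns, and of the 10 genes 4, 1 and 1, of the G1/S genes 1 in shIMPDH2 and 13 between, and of the G2/M genes 3 in shIMPA1 and 1 between. With only the groups compared, 6382 genes, 7 of the 10, 20 G1/S and 7 G2/M genes were called in shIMPDH2, 9 G2/M genes in shIMPA1, and 1 of the 10 and 3 G2/M genes between. With DESeq2, 6 G2/M genes were called in shIMPA1, and with edgeR 1 G2/M gene in shIMPDH2 and 1 of the 10 between. A pseudocount of 10 gave 1 G2/M gene in shIMPDH2. The causes were not tested.

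The labels do not say whether equal replicate numbers mark a shared batch. The deviations of same-numbered libraries correlated at 0.042 for shIMPA1 with shLuc, -0.049 for shIMPDH2 with shLuc and 0.00027 for shIMPDH2 with shIMPA1. With 2 libraries per group these values cannot settle whether the libraries are paired. The replicate block gave 7, 2 and 4 calls among the 10 genes, with E2F7 gained (adjusted p = 0.0346) and TFDP1 lost (0.0578; limma) in shIMPDH2, and 1 G2/M gene in shIMPDH2 and 11 between.

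Leaving out 1 library at a time gave 2147 to 7940 genes called in shIMPA1, 773 to 6386 in shIMPDH2 and 1430 to 7052 between, 2 to 8, 0 to 7 and 0 to 7 of the 10 genes, 23 to 38, 1 to 20 and 11 to 37 G1/S genes, and 3 to 16, 0 to 7 and 1 to 16 G2/M genes. Values that changed sign were uncalled with all libraries in the fit. Against shLuc in shIMPDH2, these were CCNE2 (-0.19 to 0.26), FZR1 (-0.092 to 0.027), HDAC1 (-0.038 to 0.18), LIN37 (-0.051 to 0.073), MCM6 (-0.19 to 0.031), RBIS (-0.44 to 0.091) and STAG3 (-0.035 to 0.13). In shIMPA1 they were COL1A1 (-0.40 to 0.012), IMPDH2 (-0.088 to 0.15), KLK3 (-0.020 to 0.47), SMAD3 (-0.014 to 0.15) and TAF12 (-0.067 to 0.074, and -0.0049 with DESeq2 and -8.4e-05 with edgeR). Between the knockdowns they were CDKN2C (-0.023 to 0.83), COL3A1 (-0.014 to 1.64), E2F2 (-0.048 to 1.31), E2F8 (-0.14 to 1.38), MAX (-0.14 to 0.036), SMC1B (-0.052 to 0.90) and STK31 (-0.23 to 0.54). With TMM scaling the largest shift of a library was 0.011 (log2), which changed no count of the 10 genes.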

Other observations

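Of 8 apoptosis genes known as E2F1 targets 5 fell in shIMPA1 cells and none rose, with a median log2 fold change of -0.66, where 30.2% of all genes were called and 16.2% were lower. In shIMPDH2 cells 3 of the 8 fell, with a median of -0.42, where 17.0% of all genes were called and 9.15% were lower. The BH3-only gene HRK fell in both knockdowns, at -0.62 in shIMPA1 and -1.15 in shIMPDH2 cells (adjusted p = 0.0273 and 0.00207, limma), and BCL2L11 (BIM) likewise at -0.75 and -0.66. APAF1, the scaffold of the apoptosome, fell in shIMPA1 cells at -0.70, a call lost without shLuc replicate 2 (-0.64, adjusted p = 0.0721, limma). The HRK call in shIMPA1 cells was lost without any 1 of the shLuc or shIMPDH2 libraries (adjusted p from 0.0509 to 0.148, limma), and the BCL2L11 call in shIMPDH2 cells likewise (-0.74 to -0.58, adjusted p from 0.0536 to 0.124, limma).

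Of 9 germ-line genes known as E2F6 targets 5 were tested, and 3 fell in shIMPA1 cells, where 16.2% of all genes were lower and E2F6 itself did not pass the test. STK31, another of the 5, gave 0.47 there (adjusted p = 0.307, limma). In shIMPDH2 cells limma, edgeR and DESeq2 each called none, with 1 at an unadjusted p under 0.05 by each. STAG3, a meiotic cohesin subunit, had 80.8 and 88.9 normalized reads in shIMPA1, 173 and 155 in shIMPDH2, and 149 and 168 in shLuc libraries, and fell at -0.90 (adjusted p = 0.00398, limma). The shIMPA1 libraries of STAG3 lay apart from the other 4. SMC1B, another meiotic cohesin subunit, fell at -0.97, which was -0.49 with the first shIMPA1 library alone. The STAG3 call was lost without shLuc replicate 2 (-0.81, adjusted p = 0.0626, limma) and the SMC1B call without shLuc replicate 1 or shLuc replicate 2 (-0.92 and -1.02, adjusted p = 0.109 and 0.0853, limma). MAEL, a piRNA pathway gene, had 2 reads over both shIMPA1 libraries and 57 over both shLuc libraries, a shLuc over shIMPA1 ratio of 28.7 with a 95% counting interval of 7.60 to 243.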
